A study of Vitis labrusca and Vitis cinerea and Vitis acerifolia with 56 samples.

Results

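The genes described here are the 150 whose transcripts stood highest in young grape berries over all later sunlight berries, in Vitis cinerea and Vitis labrusca alike. Of 29971 genes in the table, 20835 reached 1 FPKM or more in 2 or more libraries and could be ranked. FPKM is the number of fragments mapped to a gene, scaled by the length of its transcript and by the total of the library, and all levels below are FPKM. For each gene and species, the highest sunlight library was subtracted from the lower of both young-berry libraries on the log2(FPKM + 1) scale. The smaller of the 2 gaps is the score, and the 150 genes with the highest scores were taken. A score above 0 was held by 1601 genes, or 7.68% of those ranked. The members were thus chosen by measured values, those of 17 libraries, and young berry against later sunlight berries is given as a description with no test. The groups compared in the tests below come from the other 39 libraries, while those of the 17 still enter the pooled spread and the filter on low values.

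A grape berry grows in stages. In the first, just after fruit set, cells divide and the small green berry builds up organic acids, mainly tartaric and malic acid, together with tannins in skin and seed. Growth then slows before veraison, the onset of ripening, when the berry softens, takes up sugar, loses malic acid and, in coloured grapes, gains anthocyanins. Genes used for the first stage are commonly switched down well before the berry is ripe. The table pairs its grapevine gene identifiers with no names or descriptions, so no role is given to any member. Lists of cell division, cell wall, photosynthesis or seed genes could not be formed.

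Total RNA of berries was sequenced in 56 libraries, 10 labelled V. acerifolia, 22 V. cinerea and 24 V. labrusca. The labels call V. acerifolia a wild species and V. cinerea an American native species, and give the V. labrusca cultivar as a hybrid of V. vinifera and V. labrusca. Replicates are labelled as separate samples, without saying whether they came from separate vines. The p-values measure the spread between these samples, which may be technical. Clusters hung in boxes covered with aluminium foil until pre-veraison, until veraison or throughout, or hung in sunlight from the start. "Boxed" below means still in the box at harvest, and "uncovered" means that the box had been removed at an earlier stage. For V. acerifolia there was 1 library per group: boxed and sunlight at pre-veraison, boxed, uncovered and sunlight at veraison, uncovered 2 weeks after veraison, and boxed, sunlight and both kinds of uncovered berries at maturity. V. cinerea and V. labrusca had 2 libraries of young berries each. V. cinerea had 2 boxed and 1 sunlight library at pre-veraison, and 2 uncovered, 1 boxed and 2 sunlight libraries at veraison. It had 3 uncovered and 2 sunlight libraries 2 weeks after veraison, and 3 uncovered, 2 boxed and 2 sunlight libraries at maturity. V. labrusca had 2 boxed and 2 sunlight libraries at both pre-veraison and veraison, 4 uncovered and 2 sunlight libraries 2 weeks after veraison, and 4 uncovered, 2 boxed and 2 sunlight libraries at maturity. The whole berry is a mixture of cells, so fewer cells of a type and less RNA per cell cannot be told apart in any result below.

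The sum of FPKM lay between 764972 and 1882693 per library, and the depth in reads is unknown, so no counting interval can be given. Low values were sparse in 3 V. labrusca libraries, each a replicate 1: young berry, veraison in sunlight, and 2 weeks after veraison following uncovering at pre-veraison. In 9 libraries, all taken after veraison, genes private to a species went against the labelled species. These are both mature uncovered libraries and the mature sunlight library labelled V. acerifolia. Among those labelled V. cinerea they are 3 uncovered libraries 2 weeks after veraison and mature sunlight replicate 1, and among those labelled V. labrusca they are mature sunlight replicate 2 and replicate 2 of the mature berries uncovered at pre-veraison. Of these 9, only the last enters a group tested below, and its results are given with and without it. Replicate 2 of V. labrusca at veraison, boxed and in sunlight, has a title that says veraison and a stage label 2 weeks later. The title was followed.

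In young berries the 150 genes spanned a wide range of levels. Their median was 30.1 and 42.4 FPKM in the young V. cinerea libraries and 25.4 and 43.4 FPKM in the young V. labrusca libraries. Together they made up 3.13% and 3.90% of all FPKM in young V. cinerea berries and 1.84% and 3.10% in young V. labrusca berries. In mature sunlight libraries that share was 0.0183% and 0.0137% for those labelled V. cinerea and 0.0168% and 0.0107% for those labelled V. labrusca. The members were thus a visible part of the young-berry transcriptome and nearly absent from that of mature sunlight berries. They were chosen for this contrast. In mature boxed libraries the share was 0.0405% and 0.0480% for V. cinerea and 0.143% and 0.0775% for V. labrusca. Between the species the young-berry level differed by a median of 0.29 (V. cinerea minus V. labrusca, log2 scale), with single members between -3.40 and 4.02. Both V. cinerea libraries lay above both V. labrusca libraries for 45 members and below both for 25. These libraries took part in the choice, and the share among all ranked genes was not counted. Neither count is therefore read as a trait of the members.

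The highest score, 5.91, belonged to VIT_19s0090g00730. It stood at 714 and 200.2 FPKM in young V. cinerea berries and at 294 and 383 FPKM in young V. labrusca berries. Outside the young berry it was listed at 0 in most libraries, and its highest other value was 9.63 FPKM, in boxed pre-veraison V. labrusca berries. VIT_07s0031g01680 followed with a score of 5.56, and had 242 and 339 FPKM in young V. cinerea berries and 142 and 214 FPKM in young V. labrusca berries. At pre-veraison it was at 3.95 and 1.57 FPKM in boxed V. cinerea and at 1.14 and 2.19 FPKM in boxed V. labrusca. Both leading members were already low in both species 2 weeks before ripening began, in the box as well. At the other end of the list, the members ranked 148 to 150 had scores of 1.62, 1.62 and 1.60, and the genes ranked 151 to 153, just outside, had 1.60, 1.59 and 1.59. The limit of 150 thus cuts through a continuous range. Of the members, 2 pairs have consecutive identifiers, VIT_10s0003g01550 with VIT_10s0003g01560 and VIT_17s0000g05830 with VIT_17s0000g05840.

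**Figure D1:**
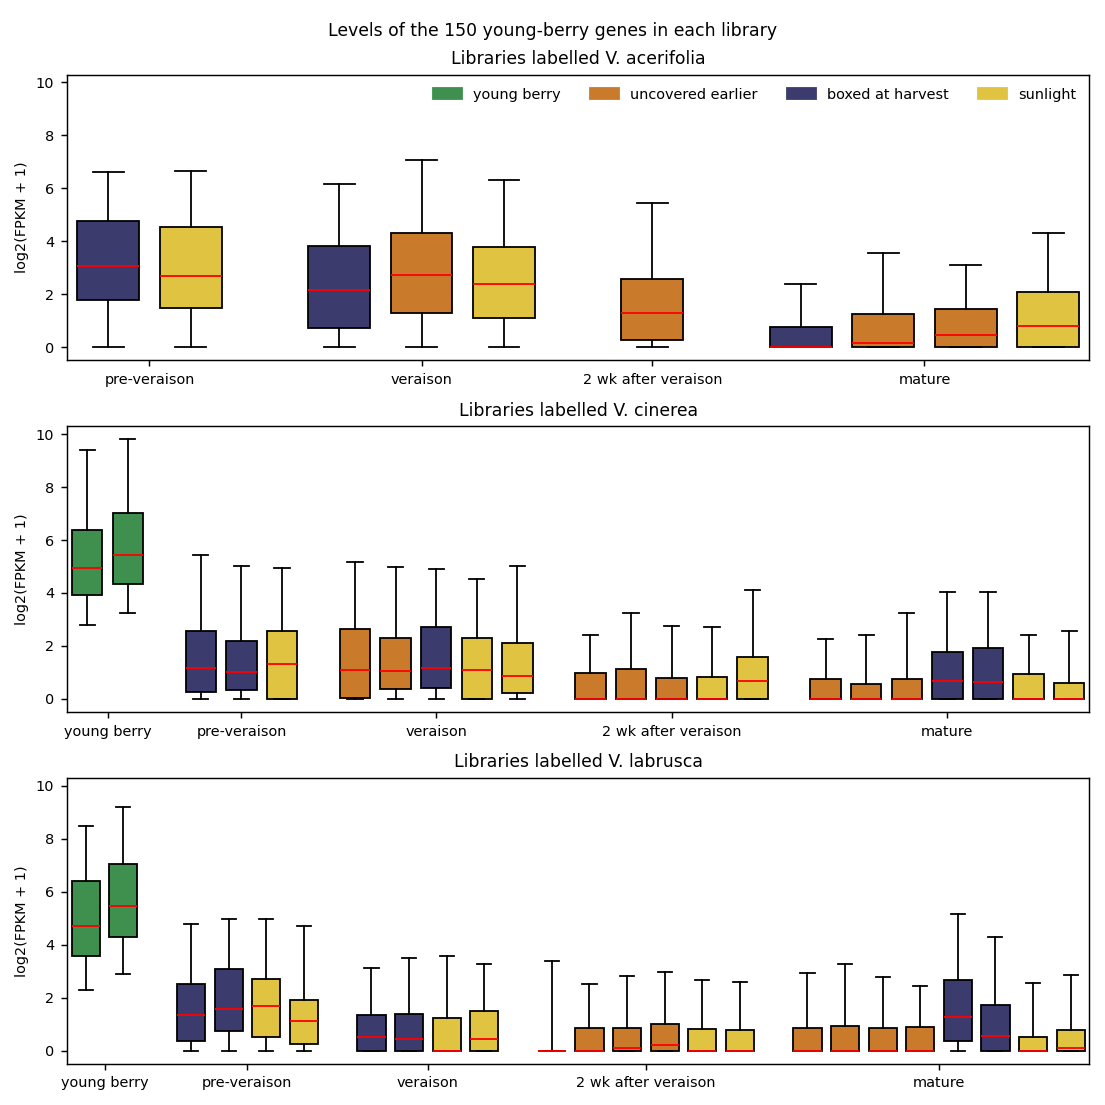
Distribution of the 150 members on the log2(FPKM + 1) scale in each library (box from the lower to the upper quartile, red line the median, whiskers at the 5th and 95th percentiles), by stage and by light at harvest. The young-berry libraries stand apart because the members were chosen for it. Pre-veraison V. acerifolia libraries stand above those of the other species. The boxed mature libraries of V. cinerea and V. labrusca stand above the uncovered and sunlight ones. In both of the latter cases the median of all ranked genes has the same order.

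In sunlight the stage of the highest later value was counted for each member, with no test, because these values were part of the choice. The highest of the later V. cinerea sunlight libraries was at pre-veraison for 66 members, at veraison for 62, 2 weeks after veraison for 17 and at maturity for 5. In V. labrusca it was at pre-veraison for 119 members, at veraison for 21, 2 weeks after veraison for 9 and at maturity for 1. V. cinerea has 1 pre-veraison sunlight library and V. labrusca has 2, which also bears on these counts.

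The count of members at 1 FPKM or more shows the same course library by library. All 150 were at this level in the 4 young-berry libraries, which the choice by high young-berry levels ensures. At pre-veraison it was met by 77 and 76 members in boxed V. cinerea, against 83 in V. cinerea in sunlight, and by 92 and 99 in boxed V. labrusca, against 96 and 81 in V. labrusca in sunlight. A drop from 150 to later libraries is thus favoured by the choice. The counts of boxed and sunlight berries lay close together or overlapped, and low sunlight levels were part of the choice. Of all ranked genes, 16604 and 16815 reached 1 FPKM in young V. cinerea, and 15605 and 15461 in boxed pre-veraison V. cinerea. In V. labrusca 13988 and 16297 did so in young berries, and 15251 and 15345 in boxed pre-veraison ones. At veraison V. cinerea had 79 and 77 members at this level in uncovered berries, 85 in boxed ones and 78 and 65 in sunlight. V. labrusca had fewer at veraison, 52 and 46 boxed and 39 and 49 in sunlight. At maturity 29, 28 and 33 members were left at this level in uncovered V. cinerea, against 59 and 57 in boxed V. cinerea, and 36 and 24 in sunlight. Mature V. labrusca had 34, 36, 32 and 32 in uncovered berries, against 89 and 55 in boxed berries, and 31 and 34 in sunlight. In both species as labelled, every mature boxed library lay above every mature uncovered and sunlight one in this count. The same order held for all ranked genes. Of these, 14897 and 14983 reached 1 FPKM in boxed V. cinerea, against 13916 to 14069 in uncovered and sunlight berries. For V. labrusca the counts were 14762 and 14658 in boxed berries, against 13903 to 14111.

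**Figure D2:**
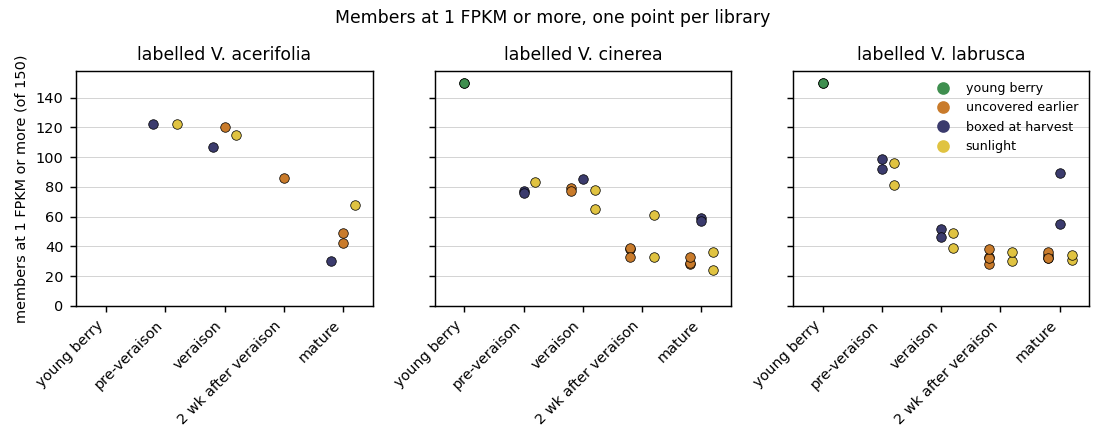
Number of the 150 members at 1 FPKM or more (vertical axis) in each library, 1 point per library, by stage (horizontal axis) and light at harvest (colour). Boxed mature libraries hold 59 and 57 members in V. cinerea and 89 and 55 in V. labrusca, above the uncovered and sunlight libraries of the same stage. The count of all ranked genes at this level has the same order there.

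Member by member, boxed and sunlight berries were set side by side, again with no test, because low sunlight levels were part of the choice. At pre-veraison both boxed V. cinerea libraries were above the sunlight library for 46 members (30.7%) and below it for 45 (30%), and 32.8% and 35% of all ranked genes did so. Both boxed V. labrusca libraries were above both sunlight libraries for 26 members (17.3%) and below for 10 (6.67%), against 16.2% and 15.1% of all ranked genes. At veraison the single boxed V. cinerea library was above both sunlight libraries for 76 members (50.7%) and below both for 20 (13.3%), against 38.7% and 23.5% of all ranked genes. Boxed V. labrusca was above sunlight for 31 members (20.7%) and below for 18 (12%), against 34.9% and 10.8% of all ranked genes. At maturity boxed V. cinerea was above sunlight for 60 members (40%) and below for 7 (4.67%), against 33.7% and 16.2% of all ranked genes. Mature boxed V. labrusca was above sunlight for 57 members (38%) and below for 1 (0.667%), against 26.8% and 13% of all ranked genes. Mature sunlight replicate 1 of V. cinerea and replicate 2 of V. labrusca go against their labels. The counts at maturity were not made without them. By label, the members were above sunlight more often than all genes at maturity in both species and at veraison in V. cinerea. They were above it less often at veraison in V. labrusca, and near the share of all genes at pre-veraison. The choice of members by low sunlight values points towards boxed berries throughout.

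Boxed pre-veraison berries did not enter the choice and show which members outlasted the young stage in darkness. At 1 FPKM or more in both boxed libraries stood 63 members in V. cinerea and 83 in V. labrusca. In all 4 of these libraries 55 members reached it, 32 were below it in all 4, and 63 lay between. The 55 that persisted were the more abundant ones from the start, with median young-berry levels of 65.1 and 101 FPKM in V. cinerea and 61.2 and 104 FPKM in V. labrusca. The 32 low ones had medians of 9.11 and 21.7 FPKM in young V. cinerea and 6.70 and 11.5 FPKM in young V. labrusca. A fixed level of 1 FPKM is met more easily by abundant genes, so this split follows the starting level as well as the loss. In V. acerifolia at pre-veraison, 53 of the 55 and 13 of the 32 reached 1 FPKM in boxed berries, and 52 and 13 did so in sunlight. In boxed mature berries, 39 of the 55 reached it in each V. cinerea library and 43 and 37 in the V. labrusca libraries. A smaller group of 12 members stayed under 1 FPKM in each of the 42 later libraries labelled V. cinerea or V. labrusca, and 10 of these 12 did so in each V. acerifolia library as well.

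**Figure D3:**
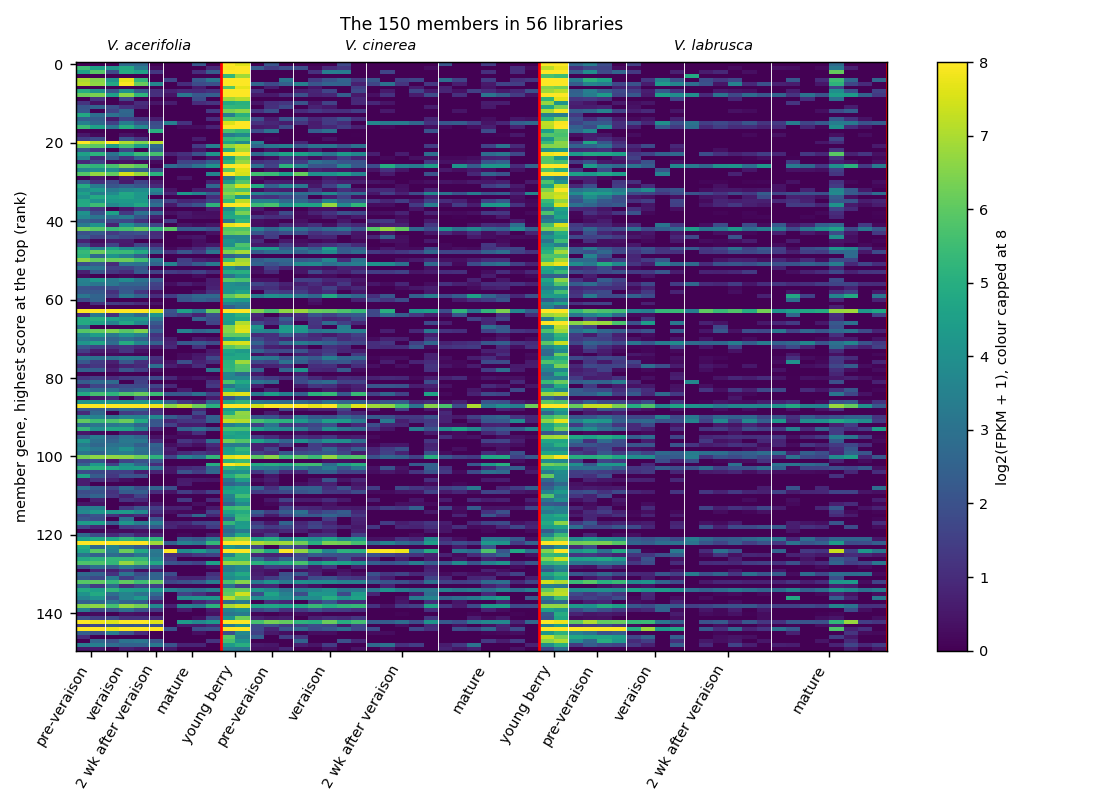
Heat map of the 150 members (rows, highest score at the top) in 56 libraries (columns) on the log2(FPKM + 1) scale, ordered by species (red lines), stage (white lines) and light. The bright columns are the young berries of V. cinerea and V. labrusca, and many rows stay bright in V. acerifolia up to veraison.

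To ask whether the loss goes on in continuous darkness, mature boxed berries were compared with pre-veraison boxed berries, neither of which chose the members. In V. cinerea 11 members fell and 1 rose, and 3.34% of all tested genes fell and 2.03% rose. In V. labrusca 13 members fell and 0 rose, against 1.61% and 0.787% of all tested genes. With an unadjusted p under 0.05, 39 members were lower and 6 higher in V. cinerea, and 26 lower and 3 higher in V. labrusca. The share of all tested genes at an unadjusted p was not counted, here or below. Such counts are therefore not read as a trait of the members. The median member differed by -0.28 in V. cinerea and by -0.37 in V. labrusca on the log2(FPKM + 1) scale, and the median of all genes tested by -0.09 and -0.07. In V. labrusca the median member was at -0.11 without pre-veraison boxed replicate 2 (all genes -0.05), at -0.11 without mature boxed replicate 2 (all genes -0.10) and at -0.59 without mature boxed replicate 1, so its distance from all genes rests on single libraries. The members that fell did so by 1.24 to 4.41 in V. cinerea and by 1.36 to 5.73 in V. labrusca. Differences on this scale understate the change of low genes, and no fold is given where a group is listed at 0.

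VIT_04s0023g03650 had the firmest fall in V. cinerea. It stood at 1.09 and 0.298 FPKM in mature boxed berries, against 8.89 and 7.90 FPKM in pre-veraison boxed berries, and the groups did not overlap. The log2 difference was -2.51 (SE 0.34, limma adjusted p = 6.47e-05), a call that held whichever library was left out. VIT_06s0080g00150 fell by 2.92 in V. cinerea (SE 0.63, adjusted p = 0.00604), with 1.28 and 1.94 FPKM in mature boxed berries, against 19.0 and 18.4 FPKM in pre-veraison boxed berries. In young V. cinerea berries it had 44.7 and 38.9 FPKM. The member that rose was VIT_12s0059g02420, listed at 0 in both pre-veraison boxed V. cinerea libraries and at 0.797 and 1.79 FPKM in the mature boxed ones (1.16, SE 0.30, adjusted p = 0.0230). Even so, it stayed far under its 25.8 and 21.3 FPKM in the young berry.

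In V. labrusca VIT_18s0001g00720 stood at 0 and 1.32 FPKM in mature boxed berries, against 9.92 and 7.08 FPKM in pre-veraison boxed berries (-2.62, SE 0.42, adjusted p = 0.000709). VIT_02s0154g00320 is among the most abundant members, with 3273 and 4252 FPKM in young V. labrusca berries. It fell to 53.4 and 0.667 FPKM in mature boxed berries, against 589 and 433 FPKM in pre-veraison boxed berries (-5.73, SE 1.07, adjusted p = 0.00344). The mature boxed libraries of V. labrusca thus differed widely from each other in this gene, and both lay below the pre-veraison ones.

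These counts rest on few libraries, and the next ones take falls and rises together. In each V. cinerea case fewer of all tested genes were called as well. The V. cinerea calls went to 2 without either mature boxed library and to 6 without either pre-veraison boxed library, and the V. labrusca calls to 3 without pre-veraison boxed replicate 1 and to 8 without mature boxed replicate 1. In V. cinerea, VIT_06s0080g00150 lost its call with a pseudocount of 0.1 and without mature boxed replicate 1. VIT_12s0059g02420 lost it there without mature boxed replicate 2 or either pre-veraison boxed library. In V. labrusca, VIT_02s0154g00320 lost its call with a pseudocount of 0.1, without pre-veraison boxed replicate 1 and without mature boxed replicate 2.

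The change in darkness differed between the species for 3 members, 2 with the lower change in V. cinerea and 1 with the higher, against 0.285% and 0.344% of all tested genes. VIT_06s0080g00150 is the clearest of them. In V. labrusca it was at 17.5 and 12.1 FPKM in mature boxed berries, against 3.58 and 8.98 FPKM in pre-veraison boxed ones, while it fell in V. cinerea as given above. The difference of the changes, V. cinerea minus V. labrusca, was -4.13 (SE 0.89, adjusted p = 0.0242). VIT_04s0023g03650 differed by -2.11 (SE 0.48, adjusted p = 0.0395), and its V. labrusca levels were 1.62 and 0.993 FPKM in mature boxed berries and 2.37 and 1.71 FPKM in pre-veraison boxed ones. VIT_09s0054g00430 differed by 3.74 (SE 0.89, adjusted p = 0.0494). It was at 1.51 and 0.572 FPKM in mature boxed V. cinerea and at 0 in both pre-veraison boxed libraries, while V. labrusca had 1.25e-06 and 0.957 FPKM in mature boxed berries and 13.4 and 5.18 FPKM in pre-veraison boxed ones. The count was 0 without any 1 of the 4 boxed V. cinerea libraries or without pre-veraison replicate 1 of boxed V. labrusca, and 1 without mature replicate 1 of boxed V. labrusca. All 3 calls were lost with a pseudocount of 0.1, and without each of these 6 libraries. That of VIT_04s0023g03650 was also lost after median-ratio scaling and without pre-veraison replicate 2 of boxed V. labrusca, and that of VIT_09s0054g00430 after scaling, with no filter on low values and without the 9 libraries.

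In boxed V. labrusca a fall was already measured at veraison, against the same pre-veraison boxed libraries. Boxed berries at veraison had 15 members lower and 0 higher than boxed berries at pre-veraison, and 1.28% of all tested genes fell and 0.654% rose. At an unadjusted p under 0.05 there were 53 lower and 0 higher, with the share of all genes at that p not counted. The median member differed by -0.78, against -0.06 for all genes tested, and 125 of the 150 had a negative difference. VIT_18s0001g00720 was listed at 0 in both boxed veraison libraries, against 9.92 and 7.08 FPKM in boxed pre-veraison libraries (-3.23, SE 0.42, limma adjusted p = 9.61e-05). VIT_00s0238g00020 stood at 0.587 and 3.14 FPKM in boxed veraison berries, against 21.4 and 23.0 FPKM in boxed pre-veraison berries (-3.18, SE 0.50, adjusted p = 0.000852). In both genes every veraison library lay under every pre-veraison one. The count was 8 and 5 without pre-veraison replicate 1 and 2, and 3 and 6 without veraison replicate 1 and 2, the last of which carries the conflicting stage entry. VIT_00s0238g00020 lost its call with a pseudocount of 0.1 and without veraison replicate 1.

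From veraison to maturity in the box no V. labrusca member was called. In this comparison, added after the counts per library had been seen and made on libraries already used above, limma called 0 of the 150 in either direction, and 0.0639% of all tested genes. At an unadjusted p under 0.05 there were 2 lower and 23 higher, with the share of all genes at that p not counted. The median member differed by 0.41 and 105 of the 150 had a positive difference, while the median of all genes tested was 0. This lean rests on mature boxed replicate 1, without which the median member was at 0, with 65 positive and 57 negative differences. The mature boxed libraries were unlike each other, with 89 members at 1 FPKM or more in replicate 1 and 55 in replicate 2, against 52 and 46 in the boxed veraison libraries. Without mature boxed replicate 2, 9 members were called higher and 0 lower.

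**Figure D4:**
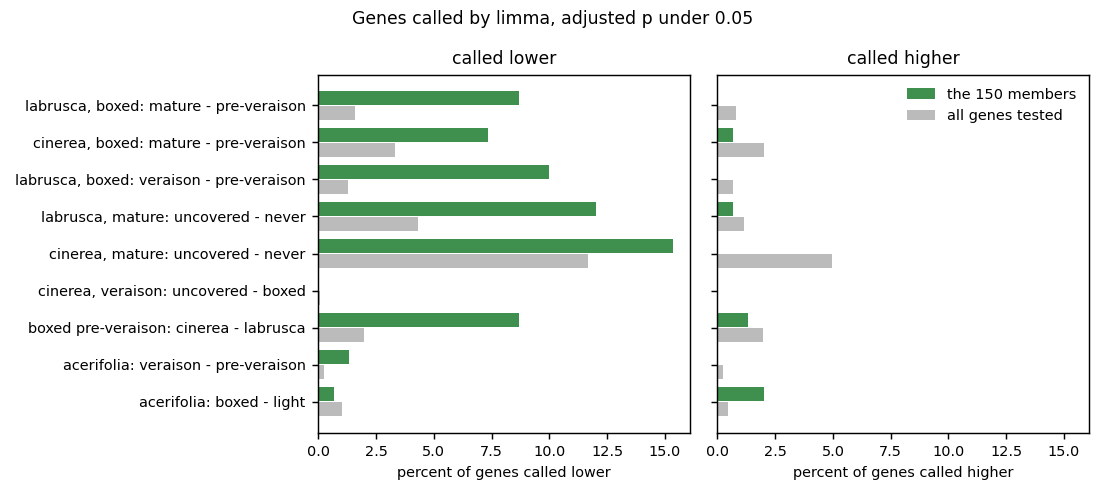
Percent of genes called lower (left) and higher (right) by limma at an adjusted p under 0.05, for the 150 members (green) and all genes tested (grey), in 9 comparisons named as group minus the group it is set against. The members fell more often than all genes in boxed ripening (7.33% against 3.34% in V. cinerea and 8.67% against 1.61% in V. labrusca). Most of the V. cinerea calls were lost without either mature boxed library. In mature uncovered V. cinerea berries their share lies near that of all genes.

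At maturity, berries whose box had been removed were compared with berries never uncovered. The berries never uncovered are the mature boxed libraries used above, and neither kind took part in the choice of members. Uncovered berries hung in light during ripening, as did the sunlight berries whose low levels were part of the choice, so the direction is not fully independent of it. In V. labrusca 18 members were lower and 1 higher in uncovered berries, against 4.33% and 1.14% of all tested genes, and the median member differed by -0.60, against -0.15 for all genes. That median rests on replicate 1 of the berries never uncovered. Without it the median member was at -0.07, closer to 0 than the -0.14 of all genes, with 77 members negative and 41 positive in place of 118 and 15, and without replicate 2 it was at -0.97. Median-ratio scaling moved the median of all genes by 0.15 and gave 12 members lower and 1 higher, with 484 of all genes lower and 321 higher in place of 881 and 232. In V. cinerea 23 members were lower and 0 higher, a share near the 11.7% of all tested genes that were lower, while 4.96% of all genes were higher. Here the median member differed by -0.25, against -0.11 for all genes. Scaling gave 19 members lower and 0 higher in V. cinerea, and 1894 of all genes lower and 1354 higher in place of 2370 and 1009.

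VIT_06s0009g00810 fell in uncovered V. labrusca. Its levels were 0.771 and 1.36 FPKM in berries uncovered at pre-veraison and 0.577 and 1.09 FPKM in those uncovered at veraison, against 17.7 and 18.7 FPKM in berries never uncovered. The log2 difference was -3.32 (SE 0.39, limma adjusted p = 2.98e-05). VIT_05s0020g01820 had 1.27 and 3.73 FPKM after uncovering at pre-veraison and 3.36 and 3.0 FPKM after uncovering at veraison, against 37.5 and 109 FPKM in berries never uncovered (-4.13, SE 0.62, adjusted p = 0.000300). In the box both genes were below the 173 and 133 FPKM and the 357 and 221 FPKM they had in young V. labrusca berries. Boxed pre-veraison V. labrusca berries had 42.2 and 59.0 FPKM of the former and 64.5 and 129 FPKM of the latter. Mature uncovered berries and those never uncovered were far apart in both genes, and the calls held under all 13 alternatives tried. The count of calls was 11 and 12 without replicate 1 and 2 of the berries uncovered at veraison and 9 without replicate 1 of those never uncovered. Without replicate 2 of the berries uncovered at pre-veraison, the library that goes against its label, it was 18, and without all 9 such libraries 19.

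In uncovered V. cinerea VIT_09s0018g01870 stood at 1.42 FPKM in the library uncovered at pre-veraison and at 0.497 and 2.50 FPKM in those uncovered at veraison, against 17.8 and 19.5 FPKM in berries never uncovered (-3.06, SE 0.52, adjusted p = 0.000377). VIT_19s0014g03650 was called in both species, in opposite directions. Uncovered V. cinerea berries had 0, 5.34e-07 and 3.49 FPKM, against 18.5 and 31.5 FPKM in berries never uncovered (-4.11, SE 0.62, adjusted p = 0.000178). Uncovered V. labrusca berries had 7.35, 7.82, 5.90 and 4.81 FPKM, against 1.08e-06 and 0 FPKM in those never uncovered (2.88, SE 0.58, adjusted p = 0.00378). The difference between the species, tested after this was seen, was -7.00 (SE 0.85, adjusted p = 8.31e-05), and all 3 calls held under every alternative tried. Its values near 0 stand beside values of several FPKM within one group, and whether those near 0 are failed estimates was not tested. The V. cinerea count was 11 and 7 without replicate 1 and 2 of the berries never uncovered.

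Over all 150 members, the effect of uncovering at maturity was lower in V. cinerea than in V. labrusca for 1 member and higher for 3, against 1.57% and 1.24% of all tested genes. VIT_03s0038g02400 had a difference of 2.83 (SE 0.57, adjusted p = 0.00829). Its levels were 1.05, 0.232 and 0.308 FPKM in uncovered V. cinerea, against 0 and 0.219 FPKM in V. cinerea never uncovered. In V. labrusca they were 1.55, 0.246, 0.939 and 1.56 FPKM uncovered, against 9.92 and 7.57 FPKM never uncovered. VIT_18s0122g00980 differed by 2.65 (SE 0.60, adjusted p = 0.0169). It was listed at 0 in all mature V. cinerea libraries of both kinds, and at 0.323, 0, 0.744 and 1.01e-09 FPKM in uncovered V. labrusca, against 11.7 and 3.71 FPKM in V. labrusca never uncovered. In both genes the levels above 2 FPKM were those of mature V. labrusca never uncovered. The call for VIT_03s0038g02400 was lost with a pseudocount of 0.1 and without boxed V. cinerea replicate 1, and that for VIT_18s0122g00980 in these and without boxed V. cinerea replicate 2 or boxed V. labrusca replicate 1. The count of 4 went to 1 and 2 without boxed V. cinerea replicate 1 and 2, to 2 and 7 without boxed V. labrusca replicate 1 and 2, to 9 without the 9 libraries and to 7 without the sparse libraries.

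At veraison, V. cinerea berries uncovered at pre-veraison were compared with the single boxed library, so that none could be dropped on the boxed side. In limma 0 of the 150 members passed in either direction, against 0.118% of all tested genes, with 8 lower and 1 higher at an unadjusted p under 0.05.

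**Figure D5:**
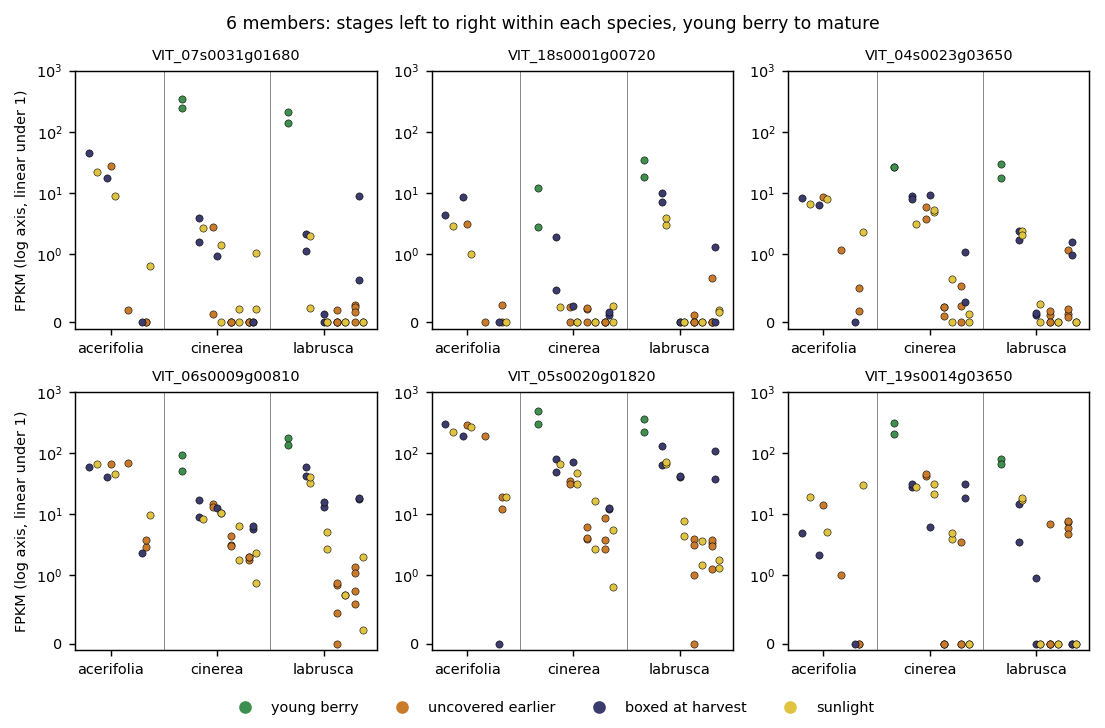
FPKM of 6 members in each library (vertical axis logarithmic, linear under 1), with stages running left to right within each species and colour for light at harvest. VIT_06s0009g00810 and VIT_05s0020g01820 are higher in boxed than in uncovered mature V. labrusca. VIT_19s0014g03650 has boxed above uncovered in mature V. cinerea and the reverse in mature V. labrusca.

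Between the species, boxed pre-veraison berries differed in 15 members, 13 lower and 2 higher in V. cinerea than in V. labrusca, against 1.97% and 1.99% of all tested genes. VIT_02s0154g00320 was at 2.39 and 0.782 FPKM in boxed V. cinerea, against 589 and 433 FPKM in boxed V. labrusca (-7.69, SE 1.07, limma adjusted p = 8.78e-05). Young V. cinerea berries had it at 1233 and 1594 FPKM. VIT_03s0038g02400 was at 1.72 and 1.01 FPKM in boxed V. cinerea, against 26.1 and 22.2 FPKM in boxed V. labrusca (-3.42, SE 0.45, adjusted p = 4.11e-05). In the opposite direction, VIT_04s0023g03650 had 8.89 and 7.90 FPKM in boxed V. cinerea, against 2.37 and 1.71 FPKM in boxed V. labrusca (1.64, SE 0.34, adjusted p = 0.00530). VIT_11s0037g00320 had 4.62 and 2.25 FPKM in boxed V. cinerea, against 0.237 and 1.24 FPKM in boxed V. labrusca (1.36, SE 0.36, adjusted p = 0.0275). The calls of both higher genes and of VIT_03s0038g02400 were lost with a pseudocount of 0.1, and those of both higher genes without boxed V. cinerea replicate 1. VIT_04s0023g03650 also lost the call without boxed V. labrusca replicate 2, and VIT_11s0037g00320 without boxed V. labrusca replicate 1. The count was 9 and 8 without boxed V. cinerea replicate 1 and 2.

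V. acerifolia did not enter the choice, and no young berry of this species was analysed here. More of the members were detected in its pre-veraison berries than in those of the other species. The same held for all ranked genes, with 16041 boxed and 16382 in sunlight at 1 FPKM or more. Pre-veraison libraries of the other species had 15202 to 15605. In boxed and in sunlight pre-veraison V. acerifolia 122 members were at 1 FPKM or more, with medians of 7.37 and 5.35 FPKM. The medians were 1.22 and 1.02 FPKM in boxed and 1.48 FPKM in sunlight V. cinerea, and 1.55 and 1.99 FPKM in boxed and 2.19 and 1.20 FPKM in sunlight V. labrusca. Both V. acerifolia libraries were above all 7 pre-veraison libraries of the other species for 74 members, and below all of them for 0. Of all ranked genes 27.1% were above and 7.21% below. This is a description with no test, because the members were chosen for low sunlight levels in V. cinerea and V. labrusca, which fixes its direction in part.

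By veraison V. acerifolia still had 107 members at 1 FPKM or more in boxed, 120 in uncovered and 115 in sunlight berries, and 86 in the uncovered library 2 weeks after veraison. The libraries labelled mature V. acerifolia held 30 boxed, 42 and 49 uncovered and 68 in sunlight. All but the boxed one of these mature libraries go against their species label, and they entered no test. From pre-veraison to veraison 2 members fell and 0 rose in V. acerifolia, against 0.246% and 0.227% of all tested genes, with 18 lower and 1 higher at an unadjusted p under 0.05. The median member differed by -0.35, against 0.08 for all genes, with 111 negative and 39 positive differences. It was at -0.12 without pre-veraison boxed berries (88 negative and 61 positive) and also at -0.12 without veraison boxed berries (89 and 57). VIT_14s0108g00390 was listed at 0 in all 3 veraison libraries, against 2.64 FPKM in boxed and 4.69 FPKM in sunlight pre-veraison berries (-2.23, SE 0.46, limma adjusted p = 0.0185). VIT_17s0000g07690 stood at 1.83 FPKM in boxed, 1.91 FPKM in uncovered and 3.24 FPKM in sunlight veraison berries, against 8.58 FPKM in boxed and 7.48 FPKM in sunlight pre-veraison berries (-1.48, SE 0.32, adjusted p = 0.0268). In both genes every veraison library lay below both pre-veraison libraries.

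With 1 library per group, the V. acerifolia spread was borrowed from the other species. Fitted on V. acerifolia alone, limma called 0 of the 127 members that passed the filter between the stages. Of all 17143 genes tested there, 1 was lower and 3 were higher. The count was 1 without pre-veraison sunlight, 0 without pre-veraison boxed, 5 without veraison uncovered and 0 without veraison boxed berries. The call for VIT_14s0108g00390 was lost after median-ratio scaling, without veraison boxed and without either library of pre-veraison. VIT_17s0000g07690 lost it without either pre-veraison library, without veraison boxed or uncovered berries, with a pseudocount of 0.1 and without the 9 libraries.

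Up to veraison, V. acerifolia berries still boxed were compared with those in light, sunlight and uncovered together, with the stage as a term. Of the members 1 was lower and 3 were higher in the box, against 1.03% and 0.453% of all tested genes. VIT_02s0025g00750 had 5.07 FPKM in pre-veraison and 5.52 FPKM in veraison boxed berries, against 1.60 FPKM in pre-veraison sunlight and 1.13 and 2.03 FPKM in veraison uncovered and sunlight berries (1.30, SE 0.25, adjusted p = 0.00372). VIT_11s0037g00530 had 16 and 22.4 FPKM in boxed berries, against 2.92 FPKM in pre-veraison sunlight and 1.5 and 7.08 FPKM in veraison uncovered and sunlight berries (2.27, SE 0.52, adjusted p = 0.0204). VIT_03s0038g02050 was lower, at 0.977 and 0 FPKM in boxed berries, against 5.50 FPKM in pre-veraison sunlight and 1.62 and 1.92 FPKM in veraison uncovered and sunlight berries (-1.58, SE 0.33, adjusted p = 0.00963). The boxed and light libraries did not overlap in any of these 3 genes. The count was 1 without either pre-veraison library and 0 without veraison boxed berries. All 3 calls were lost in a fit of V. acerifolia alone and without veraison boxed berries. That of VIT_02s0025g00750 was also lost with a pseudocount of 0.1, and those of both others after scaling and without either pre-veraison library. That of VIT_11s0037g00530 was lost with a pseudocount of 0.1 and without veraison uncovered berries as well.

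Few later values reached the young-berry level, which follows in part from the choice of members by a gap to later sunlight libraries. The share of all ranked genes that did so was not counted. In the 29 libraries labelled V. cinerea or V. labrusca that did not enter the choice, 6 members reached the lower young-berry value of their labelled species, in 9 values of 7 libraries. VIT_11s0052g01090 did so in libraries labelled V. cinerea 2 weeks after veraison, with 58.6 and 103 FPKM in those uncovered at pre-veraison and 65.4 FPKM in the one uncovered at veraison, against 55.0 FPKM in the lower young library. All 3 are among the libraries whose private genes go against the label. VIT_08s0007g00330 had 162 FPKM in mature boxed V. labrusca replicate 1, against 89.4 FPKM in the lower young library. VIT_15s0046g02410 had 27.8 FPKM in mature boxed V. labrusca replicate 2, against 19.6 FPKM. It also had 27.0 FPKM in replicate 2 of the V. labrusca berries uncovered at pre-veraison, a library against its label. The remaining 3 members did so only in libraries against their label, VIT_14s0108g00390 and VIT_11s0016g01020 in that same library and VIT_04s0008g01250 in mature sunlight V. labrusca replicate 2.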

How the data were processed

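Berry RNA was sequenced in 56 libraries and mapped to groups by title. The authors deposited 1 table of FPKM values, made with TopHat2 2.0.14 and Cufflinks 2.2.1 per the submitters' processing notes. For the build, nothing is given in the sources used here. FPKM keeps no read counts, so a count test could not be used, and an exact 0 may be a failed estimate.

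The members, gene lists and tests were chosen with earlier results of these data known. Values were analysed as log2(FPKM + 1). Tests were run in limma 3.58.1 under R 4.3.3 on genes at 1 FPKM or more in 2 or more libraries of the fit (lmFit, contrasts.fit and eBayes with trend), adjusted by Benjamini-Hochberg over all genes, at a threshold of 0.05. The fit of the 46 V. cinerea and V. labrusca libraries had 1 coefficient per group (20333 genes, 21 residual degrees of freedom). The fit of 51 added the 5 V. acerifolia libraries up to veraison with a stage and a boxed term (20729 genes, 23 residual degrees of freedom). Groups of 1 library borrow the pooled spread. All 150 members passed the filter in both fits, which the choice by high young-berry levels ensures. On simulated data only the fit of 46 was tried, for boxed ripening of V. labrusca, with changes placed in genes of higher level. The fit of 51 and changes of low genes were not simulated. Tables were handled with Python 3.11.15 and pandas 2.3.3.

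Named genes were the 2 highest scores, up to 2 members per direction and comparison with the smallest p, the members at the edge of the list and those that reached a young-berry level elsewhere. Alternatives were a pseudocount of 0.1, no filter, median-ratio scaling, a fit per species, a replicate block, the 75 highest scores, and leaving out single, sparse or doubted libraries. Labels were checked with genes private to a species, at least 1 log2 unit above each other species in every library up to veraison (271 genes for V. acerifolia, 13 for V. cinerea, 22 for V. labrusca).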

Additional observations from a re-analysis of the deposited data

Results flagged for a closer look

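In the change of boxed berries to maturity, 3 members differed between V. cinerea and V. labrusca by a test of the difference itself. The differences on the log2(FPKM + 1) scale were -4.13 for VIT_06s0080g00150, -2.11 for VIT_04s0023g03650 and 3.74 for VIT_09s0054g00430. In the effect of uncovering at maturity, the species differed by -7.00 for VIT_19s0014g03650, by 2.83 for VIT_03s0038g02400 and by 2.65 for VIT_18s0122g00980. No group held 4 libraries, so single libraries were not searched for outlying values.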

How the results depend on the processing

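None of the values for named members changed direction, with 252 that kept their side of the threshold and 76 that lost it. Counts of members called moved by more than 1.5 times as follows, and the cause was not tested. With a pseudocount of 0.1, boxed ripening gave 7 in place of 12 in V. cinerea, 8 in place of 13 in V. labrusca and 0 in place of 3 for the difference between them. Boxed veraison V. labrusca gave 6 in place of 15, boxed pre-veraison between species 7 in place of 15, and V. acerifolia 1 in place of 2 for veraison and 1 in place of 4 for boxed. Scaling gave 1 for the boxed ripening difference and 1 for each V. acerifolia comparison. Among the 75 highest scores, which are fewer genes, 4 were called in boxed ripening of V. cinerea, 6 in that of V. labrusca, 1 in their difference and 7 in boxed veraison V. labrusca. There were also 8 in each mature uncovered comparison, 2 in their difference, 7 between species at pre-veraison and 2 in boxed V. acerifolia. Without the 9 libraries the mature uncovered difference gave 9 in place of 4 and the V. acerifolia veraison comparison 1, and without the sparse libraries that difference gave 7. V. acerifolia alone, with 127 members tested, gave 0 for veraison and 1 for boxed.

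Leaving out single libraries gave 2 to 6 members in boxed ripening of V. cinerea, 3 to 9 in that of V. labrusca and 0 to 4 for their difference. It gave 3 to 8 in boxed veraison V. labrusca, 0 to 9 from there to maturity, 7 to 20 in mature uncovered V. cinerea, 9 to 24 in mature uncovered V. labrusca and 1 to 7 for that difference. Uncovered veraison V. cinerea gave 0 to 0, boxed pre-veraison between species 8 to 11, and V. acerifolia 0 to 5 for veraison and 0 to 4 for boxed. The replicate block, for libraries that share only a number, gave 16 called in boxed ripening of V. cinerea, 13 in that of V. labrusca and 20 in boxed veraison V. labrusca, and ended no call of a named member. Deviations of same-numbered libraries correlated between groups by -0.11 to 0.43 in V. cinerea and by -0.22 to 0.73 in V. labrusca. Of the libraries, 16 of 18 and 18 of 24 were closest to their own number. Both libraries of a group share a single deviation, so these are outcomes of 9 and 12 groups.

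The list itself depends on its rule, with 93 of the 150 members shared when means replaced the lowest and highest libraries and 94 without young V. labrusca replicate 1, whose low values are sparse. Depth is unknown and levels near 0 are not resolved.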
